A study of Drosophila melanogaster with 9 samples.

Results

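Regions of open chromatin gained after depletion of CP190 were taken from ATAC-seq, an assay that reads accessible DNA through fragments cut out by Tn5 transposase. Kc167 is a line from Drosophila melanogaster embryos with features of blood cells (hemocytes). There were 9 libraries, 3 from Cp190KD cells (12 µg of double-stranded RNA against Cp190), 3 from M1BPKD cells (20 µg against M1BP) and 3 from mock cells that were transfected without RNA. All cells were collected after 5 days, and each library has its own list of called peaks. Peaks that overlapped between the 6 Cp190KD and mock lists were merged into 23700 regions. A region was called gained when all 3 Cp190KD lists and none of the 3 mock lists had a peak in it, and 286 regions were chosen by this rule, which is 1.21% of all merged regions. The members were thus selected on the measured peaks of these 6 lists, and their presence in Cp190KD and absence from mock is a description, not a finding. Absence of a peak means that the signal did not pass the caller's threshold, not that the DNA was closed.

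CP190 is a BTB-domain zinc-finger protein that is a component of all known Drosophila insulator complexes, which separate regulatory domains of the genome, and it also occupies many active promoters. M1BP is a zinc-finger protein that recognises Motif 1, a core promoter element, and is known for its role at paused genes. An accessible region in this assay is typically a promoter, an enhancer or an insulator site where a factor has displaced a nucleosome. The depletion itself cannot be read from peak lists, and no control other than the mock cells was analysed here. Of 16 listed hemocyte genes, 9 had a peak in all 6 libraries within 100 bp of a transcript start, and those without one included gcm and NimC1.

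The genomic sequence at the summits shows how different the strongest members were. The windows belong to 8 of the 10 highest-ranked members and touch no untranslated region of a transcript. Each has 121 bases of the plus strand of the RefSeq dm6 assembly around the median Cp190KD summit and is named after a gene near it. Capitals mark bases of an annotated tRNA or small nuclear RNA gene or a match to 1 of 14 listed short words. The words found were CACACACAC near lncRNA:CR43334, CAGCTG in sty and GAGAGAG in br, and the ras, CG31998 and ATPsynbeta windows held none.
tRNA:Gln-TTG-2-1, chrX:3427483-3427603: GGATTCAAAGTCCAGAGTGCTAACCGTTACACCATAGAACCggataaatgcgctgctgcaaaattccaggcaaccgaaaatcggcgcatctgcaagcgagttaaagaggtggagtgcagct
ras, chrX:10742613-10742733: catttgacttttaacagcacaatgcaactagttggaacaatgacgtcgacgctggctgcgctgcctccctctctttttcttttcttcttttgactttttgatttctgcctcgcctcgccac
lncRNA:CR43334, chr3L:626811-626931: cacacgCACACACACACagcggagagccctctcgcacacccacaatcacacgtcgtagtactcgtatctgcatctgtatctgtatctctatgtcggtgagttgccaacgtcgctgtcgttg
sty, chr3L:3411148-3411268: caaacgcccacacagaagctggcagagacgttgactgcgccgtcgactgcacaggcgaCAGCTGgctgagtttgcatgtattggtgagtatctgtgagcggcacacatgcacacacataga
br, chrX:1623242-1623362: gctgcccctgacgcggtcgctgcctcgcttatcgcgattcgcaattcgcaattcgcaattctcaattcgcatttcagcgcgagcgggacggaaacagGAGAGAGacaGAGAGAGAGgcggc
CG31998, chr4:207132-207252: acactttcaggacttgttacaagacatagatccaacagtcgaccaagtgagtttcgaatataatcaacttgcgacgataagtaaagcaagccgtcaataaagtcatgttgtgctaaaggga
snRNA:U1:82Eb, chr3R:4948060-4948180: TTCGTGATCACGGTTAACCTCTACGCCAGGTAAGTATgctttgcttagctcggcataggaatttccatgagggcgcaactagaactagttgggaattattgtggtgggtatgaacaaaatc
ATPsynbeta, chr4:1033048-1033168: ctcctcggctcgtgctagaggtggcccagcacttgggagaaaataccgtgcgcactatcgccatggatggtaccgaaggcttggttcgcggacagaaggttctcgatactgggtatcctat
The first window held 41 bases of the tRNA gene, which lies on the minus strand at chrX:3427452-3427523. The U1 window held 37 bases of its gene at the start of transcription, at chr3R:4947933-4948096 on the minus strand. G+C content ranged from 39.7% in the CG31998 window, whose member overlapped a Cr1a transposable element, to 58.7% in the br window.

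The strongest member lay over the start of the glutamine tRNA gene tRNA:Gln-TTG-2-1 (chrX:3427454-3427644, 191 bp). Its summit was covered by 237, 249 and 236 fragments in Cp190KD libraries 1, 2 and 3. The background of these libraries was 46.4, 44.5 and 39.1 fragments per base. Its fold enrichment over the local background averaged 5.46 ± 0.423 (SD, n = 3 Cp190KD libraries). Neither the mock nor the M1BPKD lists had a peak there, and the nearest mock peak was 2249 bp away. The percentile of its −log10 q, the share of weaker peaks in the same list, averaged 80.2 ± 1.52 (SD, n = 3), the highest of all members. It was the only member over a tRNA gene.

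The second member lay in an intron of stx and 1815 bp from the nearest start, that of ras, which encodes IMP dehydrogenase of guanine nucleotide synthesis (chrX:10742583-10742790). It was covered by 538, 596 and 535 fragments in the Cp190KD libraries. In the M1BPKD libraries it had 345, 432 and 413 fragments. Both knockdowns therefore had a peak there in every library, with a fold enrichment of 2.48 to 2.69 in Cp190KD and 2.73 to 3.06 in M1BPKD. Its percentile of −log10 q was 76.2 to 78.2 in Cp190KD and 56.8 to 74.9 in M1BPKD. Fold enrichment ran higher over the whole M1BPKD lists, with medians of 3.85, 3.39 and 3.12 in libraries 1, 2 and 3. The Cp190KD lists had medians of 2.48, 2.64 and 2.74, so a higher fold in M1BPKD is not by itself a stronger peak in its list. The member at br, an ecdysone-response transcription factor, lay in an intron 507 bp from a start (chrX:1623139-1623339). The br member had 370, 465 and 403 fragments in the Cp190KD libraries, and 391 and 338 fragments in M1BPKD libraries 2 and 3. M1BPKD library 1 had no peak at br.

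The member in an intron of sty, which encodes Sprouty, a feedback inhibitor of receptor tyrosine kinase signalling, had 247, 293 and 254 fragments in the Cp190KD libraries (chr3L:3410976-3411307). M1BPKD libraries 1 and 3 had 215 and 203 fragments at sty. The member at the start of snRNA:U1:82Eb, a gene of the U1 RNA that recognises 5′ splice sites, had 257, 280 and 225 fragments in the Cp190KD libraries (chr3R:4948022-4948219). M1BPKD libraries 1 and 3 had 190 and 164 fragments at this U1 gene. At sty the fold enrichment was higher in both M1BPKD libraries with a peak (4.51 and 3.46) than in any Cp190KD library (2.44, 3.00 and 2.93). The percentiles of −log10 q at sty overlapped, at 63.0 and 61.4 in M1BPKD and 58.6, 65.8 and 61.9 in Cp190KD. At the U1 gene the ranges of fold enrichment overlapped.

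The member at ATPsynbeta, the gene of the catalytic beta subunit of mitochondrial ATP synthase, was centred in an exon (chr4:1032989-1033165). It had 214, 241 and 212 fragments in the Cp190KD libraries and no peak in M1BPKD. A second member of chromosome 4, near CG31998, overlapped a Cr1a element (chr4:207060-207251). Here the Cp190KD libraries had 151, 197 and 167 fragments, and M1BPKD libraries 1 and 2 had 171 and 189. The member near lncRNA:CR45245 stood far from any mock peak, the nearest being 18928 bp away (chr3L:10385592-10386026). It was covered by 157, 157 and 152 fragments in the Cp190KD libraries and had no peak in M1BPKD. The CG6168 member lay as far from a mock peak, at 19360 bp, but had peaks in M1BPKD libraries 2 and 3. These had 171 fragments each, beside 152, 162 and 143 in the Cp190KD libraries.

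The remaining high members were of both kinds. The member 61 bp from the start of CG10417 had 193, 210 and 210 fragments in the Cp190KD libraries and no peak in M1BPKD (chr2R:5363075-5363255). At Tango11 the Cp190KD libraries had 230, 287 and 245 fragments (chr2R:21719801-21720051), and M1BPKD library 1 alone had a peak, with 341 fragments and a fold enrichment of 8.86. Introns of kst, which encodes the beta-heavy spectrin Karst, and of rdx, which encodes an adaptor of a ubiquitin ligase, held further members with mean percentiles of 56.9 and 51.6. The kst member had a peak in 2 M1BPKD lists and the rdx member in none. Of the 20 highest members, 7 had a peak in no M1BPKD list, 2 in 1 list, 8 in 2 lists and 3 in all 3. Over the 20, the summits of the 3 Cp190KD libraries lay within 37 bp of each other.

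**Figure D1:**
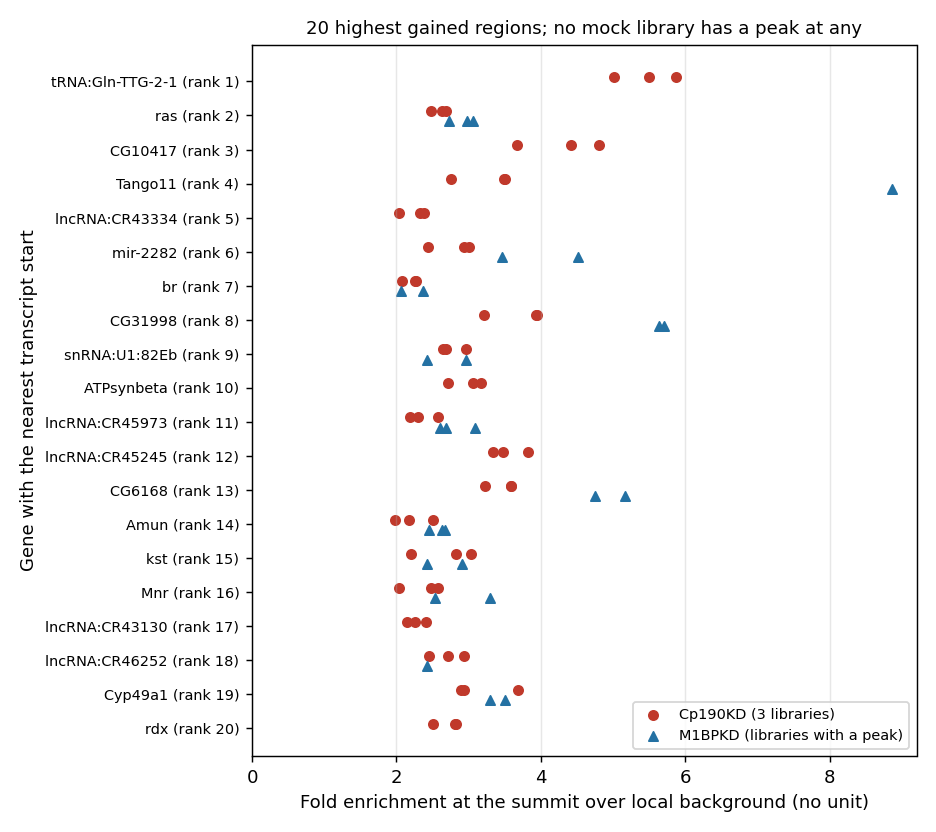
Fold enrichment at the summit (x axis, ratio to local background) for the 20 highest gained regions, named on the y axis by the gene with the nearest start. Circles are the 3 Cp190KD libraries and triangles the M1BPKD libraries that have a peak. Mock has no peak at any of them by the rule. Median fold enrichment over the whole lists was 2.48 to 2.74 in Cp190KD and 3.12 to 3.85 in M1BPKD. The tRNA:Gln-TTG-2-1 region has the highest Cp190KD values, 5.02 to 5.87, and no triangle.

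Most members were weak and narrow. Their median fold enrichment was 2.04, 2.05 and 2.12 in Cp190KD libraries 1, 2 and 3, where the whole lists had medians of 2.48, 2.64 and 2.74. The median member had 121, 120 and 110.5 fragments over its summit in these libraries, and the median percentile was 23.8, 24.6 and 22.9. The lowest member stood at the 0.14 percentile of a list, just above the caller's threshold. Members were 166 to 1383 bp wide with a median of 274.5 bp, against 399.0 bp over all merged regions, and 26 were wider than 500 bp. The summits of the 3 Cp190KD libraries lay within 50 bp of each other in 130 members (45.5%). For regions with a peak in all 6 libraries this share was 58.4%.

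Just inside the rule stood the member 134 bp from the start of CG34454 (chr3L:232100-232331), with −log10 q of 12.4, 4.58 and 12.2 in the Cp190KD libraries. The others with the weakest single peak were an intergenic region of the Y chromosome, with 4.61, 14.5 and 7.77, and one near CG14506, with 9.46, 7.51 and 4.82. Just outside were 485 regions with a peak in all 3 Cp190KD lists and in 1 mock list. The one near eIF3e had −log10 q of 9.71, 8.55 and 6.0 in Cp190KD and 4.61 in mock library 1. The one near Fbxl4 had 5.98, 5.87 and 10.4 in Cp190KD and 4.62 in mock library 1, and the one in an intron near Mos had 10.5, 10.8 and 8.10 in Cp190KD and 4.58 in mock library 2. The 3 regions named on each side were picked for the lowest −log10 q of the deciding peak. Their values under 5, with the threshold of calling at 4, follow from that choice and do not describe the other regions.

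Whether such regions recur in libraries that did not choose them was examined by leaving out 1 Cp190KD and 1 mock library at a time. Candidates were chosen in the same way on the other 4 libraries, which gave 576 to 890 candidates over the 9 pairs of left-out libraries. On average 61.7% ± 5.77 of the candidates had a peak in the left-out Cp190KD library and 32.5% ± 6.76 in the left-out mock library (SD over 9 pairs, which share libraries). The Cp190KD share was higher in 9 of 9 pairs, by 29.2 percentage points on average, and the ranges did not overlap, at 56.0% to 69.5% in Cp190KD and 22.6% to 39.1% in mock. Of all merged regions, the left-out libraries had a peak in 73.0% to 76.6% for Cp190KD and 71.0% to 77.2% for mock, means per library. Background coverage was 43.3 ± 3.78 fragments per base in Cp190KD and 40.6 ± 1.03 in mock (SD, n = 3 each). The median peak had 171 to 182 fragments over its summit in Cp190KD libraries and 155 to 162 in mock libraries. The part of these differences in coverage in the result was not tested.

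**Figure D2:**
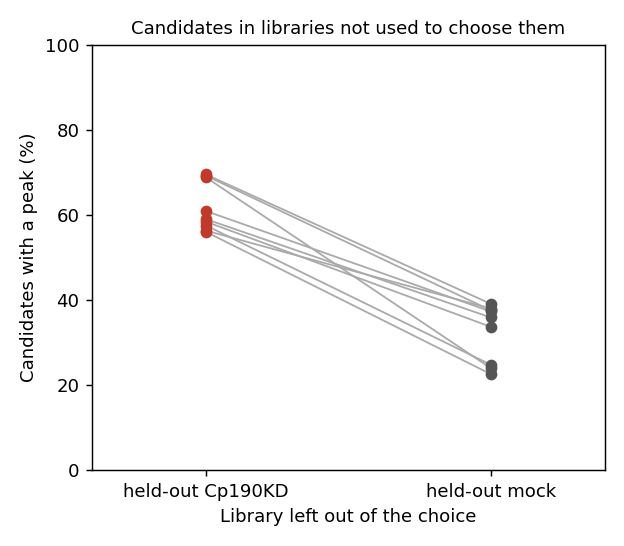
Share of candidate regions (y axis, percent) with a peak in the Cp190KD library (left) and in the mock library (right) that were both left out of the choice. Each line is 1 of the 9 pairs. Cp190KD points lie between 56.0% and 69.5% and mock points between 22.6% and 39.1%.

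The M1BPKD libraries had no part in choosing the members. A peak was present at 60, 70 and 71 of the 286 members in M1BPKD libraries 1, 2 and 3, which is 21.0%, 24.5% and 24.8%. All 3 M1BPKD lists had a peak at 43 members (15.0%, 95% Wilson interval 11.4% to 19.6%), 24 members had one in 2 lists and 24 in 1 list. The other 195 members (68.2%) had none. Over all merged regions 46.3% had a peak in all 3 M1BPKD lists and 36.0% in none. Regions with no mock peak and a peak in 2 Cp190KD lists reached 10.0% (63 of 630, interval 7.89% to 12.6%), and those with a peak in 1 Cp190KD list 6.31% (121 of 1919, interval 5.30% to 7.48%). Regions with a peak in all 3 Cp190KD lists and in 1 mock list reached 17.5% (85 of 485, interval 14.4% to 21.2%), and those with 2 mock lists 20.3% (202 of 993, interval 18.0% to 23.0%). Intervals cover counting error only. M1BPKD libraries had a background of 32.3 ± 2.86 fragments per base (SD, n = 3), lower than mock, and held 13464 to 15232 peaks, against 17178 to 18959 in mock. The part of this lower coverage in the missing peaks was not tested.

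Members found in 2 or 3 M1BPKD lists ranked higher in Cp190KD than those in fewer. The median of the mean percentile was 38.1 for members with a peak in all 3 M1BPKD lists and 43.5 for those in 2 lists, against 15.7 for members in 1 list and 19.1 for members in none. Among the 50 highest members 37 had a peak in at least 1 M1BPKD list, and among the other 236 members 54 had one. Over all merged regions the share was 64.0% (15167 of 23700). Whether stronger peaks recur more often in M1BPKD among all merged regions was not tested. Where all 3 M1BPKD lists had a peak, its summit lay a median of 21 bp from the Cp190KD summit, and within 50 bp at 32 of 43 members. All 3 M1BPKD summits lay inside the region at 37 of these 43.

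These members differed from the rest in position and base composition as well. Of the 43 members with a peak in all 3 M1BPKD lists, 5 were centred in exons (11.6%), 18 in introns and 16 in promoters, and their median G+C content was 42.8%. Of the 195 members in no M1BPKD list, 82 were centred in exons (42.1%), 46 in introns and 41 in promoters, and their median G+C content was 53.2%. The same contrast was present among all merged regions, where 21.9% of regions in all 3 M1BPKD lists and 47.7% of those in none were exonic, with median G+C of 47.8% and 54.2%. It was also present among regions with no mock peak and a peak in 1 or 2 Cp190KD lists. There 11.4% and 46.4% were exonic, with median G+C of 44.8% and 53.7%, so the contrast is not particular to the members.

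**Figure D3:**
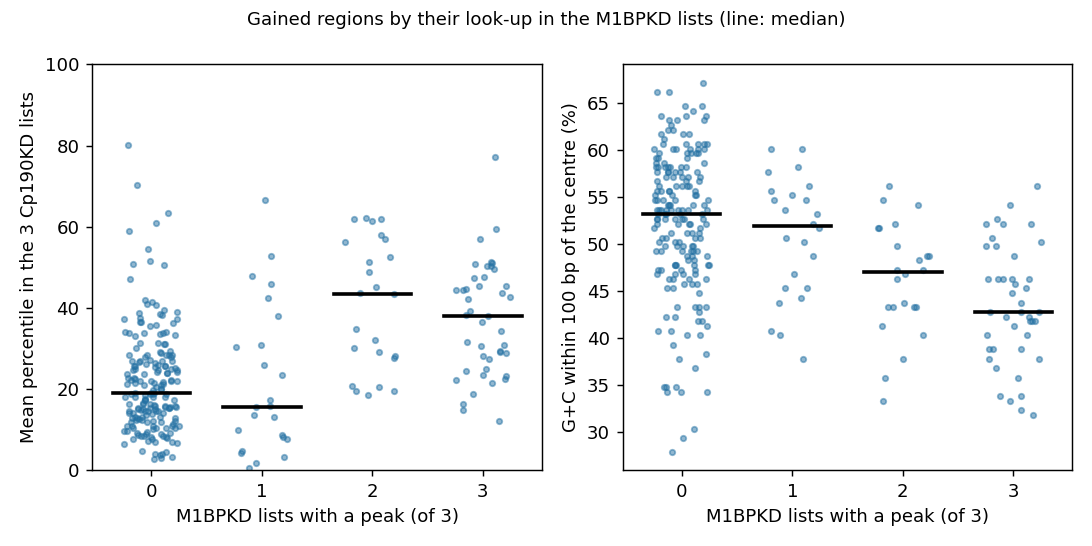
Gained regions by the number of M1BPKD lists with a peak (x axis, 0 to 3). The left panel shows the mean percentile in the 3 Cp190KD lists and the right panel the G+C content within 100 bp of the centre (percent). Points are regions and lines medians, which are 19.1 and 53.2% at 0 lists and 38.1 and 42.8% at 3 lists.

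The members found in all 3 M1BPKD lists included a region near the start of Amun, with 302, 405 and 303 fragments in Cp190KD and 271, 313 and 264 in M1BPKD. A region in introns of Adgf-A and Adgf-A2, of a family of adenosine deaminase growth factors, had 155, 150 and 141 fragments in Cp190KD and 169, 177 and 153 in M1BPKD. The region 13 bp from the start of Pu, the gene of GTP cyclohydrolase, had 156, 150 and 142 fragments in Cp190KD and 166, 197 and 174 in M1BPKD. At Pu every M1BPKD value was above every Cp190KD value, in fragments and in fold enrichment, whereas at Amun the ranges overlapped on both scales. On the percentile of −log10 q Pu stood at 61.1, 68.5 and 67.2 in M1BPKD, against 48.7, 46.3 and 47.2 in Cp190KD.
The gene CG8312 held 2 members, and the higher, in an intron, had 135, 149 and 123 fragments in Cp190KD and 84, 126 and 112 in M1BPKD. The highest in this class after ras was the region near lncRNA:CR45973, with 301, 330 and 324 fragments in Cp190KD and 381, 390 and 334 in M1BPKD.

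Fewer members lay at transcript starts than in all merged regions. The class of a region was set by its centre, with a promoter reaching from the start to 1500 bp upstream. By this definition 70 members (24.5%) were in promoters, 97 (33.9%) in exons, 81 (28.3%) in introns and 35 (12.2%) between genes, and 3 lay on unplaced sequences. Over all merged regions promoters made up 34.9%, exons 34.4%, introns 20.6% and intergenic regions 9.87%. Some part of the region lay within 100 bp of a start for 33 members (11.5%). This held for 31.7% of all merged regions and 50.4% of regions with a peak in all 6 libraries. Such a count favours wider regions, and the median width was 274.5 bp in members, 399.0 bp in all merged regions and 602 bp in those in all 6 libraries. The part of width in these shares was not tested. Regions with a peak in all 3 mock lists and no Cp190KD list were close to the members in these shares, with 12.9% within 100 bp of a start and 26.7% in promoters. They differed from the members in others, with 18.4% in exons and 24.2% between genes. The median distance of a member to the nearest start was 2072 bp, against 1185 bp over all merged regions.

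**Figure D4:**
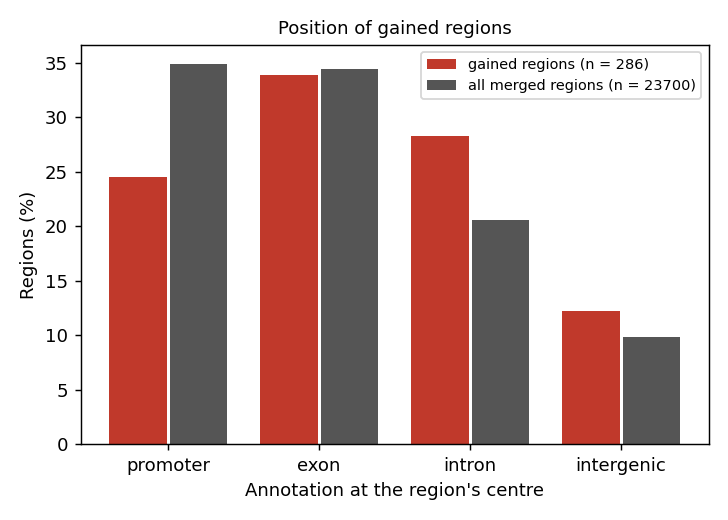
Share of regions (y axis, percent) by the annotation at their centre, for the 286 gained regions (left bars) and all 23700 merged regions (right bars). Promoters hold 24.5% of gained and 34.9% of all regions, and introns 28.3% and 20.6%.

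Members at starts covered genes of several kinds. Besides the tRNA, U1, CG10417, Tango11 and Pu starts, the start of me31B, which encodes an RNA helicase of cytoplasmic mRNA granules, was covered by 126, 143 and 114 fragments in Cp190KD and had no peak in M1BPKD. A region of 670 bp next to CkIIalpha, the catalytic subunit of casein kinase II, overlapped an S2 transposable element and had 234, 280 and 138 fragments in Cp190KD and 105, 172 and 133 in M1BPKD. Its percentile in Cp190KD varied more than that of the other members named at starts, at 59.0, 65.2 and 9.24. The starts of CG8738, CG7720 and lncRNA:CR45643 completed the 10 highest members at starts, and M1BPKD lists with a peak there numbered 3, 2 and 1.

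The members were spread over all chromosomes. Chromosome arms 3L, 3R, 2R and 2L held 67, 60, 56 and 53 of them and X held 43 (15.0%, against 18.7% of all merged regions). Chromosome 4 held 3, Y held 1 and unplaced sequences 3. Another member lay within 10000 bp of 26 members (9.09%), and no share for other regions was computed to set beside this. The nearest mock peak was a median of 767 bp away (quartiles 383.2 and 1820 bp), within 500 bp for 96 members and beyond 5000 bp for 22.

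Transposable elements overlapped 12 members (4.2%), against 1.9% of all merged regions. The family 1360, a DNA transposon, accounted for 6 of the 12, which is 2.10% of members and 0.397% of all regions. This family was singled out for its count, which is small. INE-1 overlapped 2 members, and Cr1a, R2, S2, gypsy8 and ninja-Dsim-like 1 each. At least 1 M1BPKD list had a peak at 7 of the 12, against 91 of the 286 members and 64.0% of all merged regions.

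Exact short words were counted on both strands within 100 bp of the centre of 283 members on assembled chromosomes. The Motif 1 core word GGTCACAC was found in 2 members (0.707%) and the DRE word TATCGATA in 3 (1.06%), against 0.799% and 0.824% of all regions. GGTCACAC is an exact stretch of the longer Motif 1, which the study scanned as a matrix. Its shares are therefore not those of Motif 1. The GA repeat GAGAGAG, read by GAGA factor and CLAMP, was found in 9 members (3.18%), against 5.66% of all regions. The word TGANTCA, with any base at N, includes the Jun and Fos site but is wider than it. It was found in 19 members (6.71%), against 4.32%, and TATAAA in 30 (10.6%), against 8.10%. The Su(Hw) core word TGCATA was found in 24 members (8.48%), against 9.29% of all regions and 24.5% of the 603 regions with a peak in all 3 mock lists and no Cp190KD list. The GATA words AGATAA and TGATAA were in 9.19% and 9.54% of members, against 7.85% and 10.3% of all regions. The E-box words CAGCTG and CACGTG were in 14.1% and 3.89%, against 14.6% and 3.59%. The STAT word TTCNNNGAA was in 3.18%, against 4.25%, and the tRNA B box word GGTTCGA in 2.47%, against 1.76%. Repeats of CACACACAC were in 3.53% and AAAAAAAA in 4.24% of members, against 4.26% of all regions for each. No word was present in more than 14.1% of members, and a match is a string of letters, not evidence of binding.

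Genes were related to members by position alone, where the span of a gene with 2000 bp to each side held a member. By this measure 367 of 13968 protein-coding genes (2.63%) had a member. Over 10 lists of regulatory genes 17 of 172 matched genes (9.88%) had one, but the listed genes were longer, with a median span of 9471.5 bp against 2164.5 bp. The lists were also chosen with earlier results of these data known, so their shares are a description only. Of 16 ecdysone response genes 4 had a member (br, ftz-f1, Eip78C and Eip75B), and of 20 genes of receptor tyrosine kinase and Ras signalling 4 (sty, Pvf2, pnt and InR). No member was near any of 14 insulator protein genes or 8 Hox genes. The remaining lists had 1 or 2 genes each, with 2 of 16 hemocyte genes, 2 of 15 Notch and E(spl) genes, 2 of 29 guidance and adhesion genes, 1 of 14 JNK and AP-1 genes, 1 of 22 Toll and Imd genes and 1 of 19 heat shock genes.

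Among the ecdysone genes, the intronic member of the nuclear receptor gene ftz-f1 had 121, 128 and 106 fragments in Cp190KD and that at the nuclear receptor gene Eip78C 187, 195 and 186. Neither had a peak in M1BPKD. The intronic member of mam, which encodes the Notch coactivator Mastermind, had 158, 174 and 167 fragments in Cp190KD and 135, 148 and 147 in M1BPKD, with fold enrichments over the local background of 2.10, 2.28 and 2.53 in Cp190KD and 2.80, 2.52 and 2.55 in M1BPKD. Fragment numbers follow the coverage of a library, which was lower in M1BPKD, and at mam the order of the groups differed between the scales. Fold enrichment ran higher over the whole M1BPKD lists, as given above.
The region next to kay, the gene of fly Fos, had 206, 237 and 199 fragments in Cp190KD, and M1BPKD libraries 2 and 3 had 154 and 160. The intronic member of pnt, an ETS factor downstream of Ras, had fold enrichments of 1.59, 1.5 and 1.56 in Cp190KD, and of 2.03 and 2.53 in M1BPKD libraries 2 and 3. Its percentiles of −log10 q were 27.0, 15.5 and 19.4 in Cp190KD, and 31.9 and 52.3 in those M1BPKD libraries. An exonic member of Pvf2, which encodes a ligand of the PDGF and VEGF receptor type, had 108, 107 and 93 fragments in Cp190KD, and M1BPKD libraries 2 and 3 had 84 and 79. M1BPKD library 1, the one with the lowest background (29.5 fragments per base), had no peak at kay, pnt or Pvf2.

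The hemocyte genes with a member were srp, the GATA factor of blood cell formation, and ush, which encodes its FOG-type cofactor. The srp member was exonic, with 237, 259 and 228 fragments in Cp190KD and a mean percentile of 16.3 ± 6.69 (SD, n = 3), and the ush member was exonic with 14.9 ± 9.58 (SD, n = 3). Both had no peak in M1BPKD. The member near Hsp83, the gene of fly Hsp90, had 263, 249 and 243 fragments in Cp190KD and 174, 222 and 163 in M1BPKD. Members near PGRP-LE, a peptidoglycan sensor, and E(spl)m5-HLH, a Notch target, and in an intron of Sema1a, a guidance molecule, were weak, with mean percentiles of 18.7, 11.9 and 17.4 and no M1BPKD peak. The member in unc-5, a netrin receptor gene, had a mean percentile of 15.6 and a peak in M1BPKD library 3.

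More than 1 member lay within the span of 19 of 13968 protein-coding genes, some of which overlap and share members. Of the 19, 3 genes had 3 members. These were FER, a tyrosine kinase gene, shot, which encodes a linker of actin and microtubules, and ND-15, and they were singled out after their counts were seen. None of the 3 FER members had a peak in M1BPKD. The gene brm, which encodes the ATPase of the fly SWI/SNF remodelling complex, held 2 members. Spans of the 19 genes ranged from 1832 bp at CG7215 and Prx5, which share both members, to 106532 bp at klar. The median over all protein-coding genes was 2164.5 bp.

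The peaks that all 9 libraries retained near members were compared as well, since these were not part of the rule. Of 9234 such regions, 346 lay within 5000 bp of a member. The median log2 number of summit fragments of these neighbours, minus that of all retained regions of the same library, was 0.22, 0.18 and 0.19 in M1BPKD libraries 1, 2 and 3, against 0.08, 0.07 and 0.07 in mock libraries 1, 2 and 3. M1BPKD averaged 0.20 ± 0.02 and mock 0.07 ± 0.01 on the log2 scale (SD, n = 3 each), a difference of 0.125. It is given without a test, since the mock libraries took part in choosing the members. With candidates chosen without the mock library compared, M1BPKD minus mock was 0.084, 0.117 and 0.092 for mock libraries 1, 2 and 3, an alternative chosen after the data were seen. When only neighbours at a transcript start were used, the difference was -0.015. Starts lay within 100 bp of 54.6% of neighbours and 61.0% of all retained regions.

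In Cp190KD the same value was 0.06, 0.12 and 0.07 in libraries 1, 2 and 3, which overlapped mock. It averaged 0.08 ± 0.03 in Cp190KD and 0.07 ± 0.01 in mock (SD, n = 3 each), with no test since these libraries chose the members. With candidates chosen without the 2 libraries compared, the difference of Cp190KD and mock averaged 0.02 over the 9 pairs and ranged from -0.005 to 0.047. It was above 0 in 7 of the 9 pairs, which share libraries and are not separate observations. In 4 pairs it exceeded 0.028, the SD of the Cp190KD libraries over the 346 neighbours of the members, which is not the spread of these differences.

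**Figure D5:**
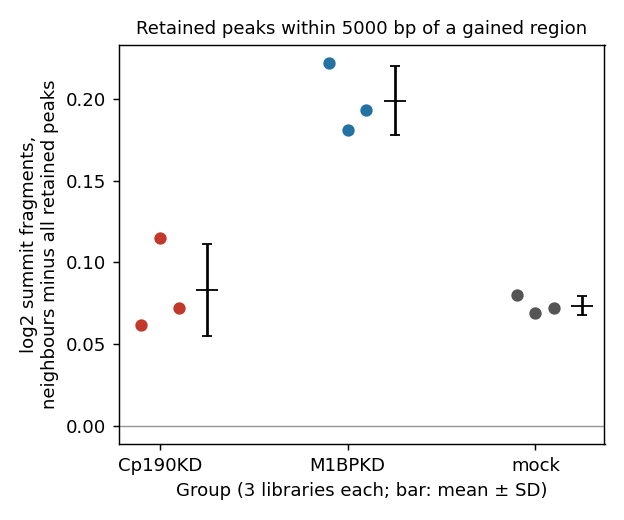
Median log2 summit fragments of 346 retained peaks within 5000 bp of a gained region, minus the median of all 9234 retained peaks of the same library (y axis), for Cp190KD, M1BPKD and mock libraries. Points are libraries and bars mean ± SD. M1BPKD points lie at 0.18 to 0.22, above Cp190KD (0.06 to 0.12) and mock (0.07 to 0.08).

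Which regions were called gained depended on how strong a peak had to be. With the threshold raised to a −log10 q of 10 in all lists, 246 regions were gained. They held 108 of the 286 members (37.8%), and 43.9% of them overlapped a member. At a −log10 q of 20, 197 regions were gained, with 31 of the members (10.8%), and 15.7% of them overlapped a member. Under a stricter threshold a mock peak below it counts as absent, which adds regions that had such a peak in the deposited lists. With 1 library left out the rule had fewer lists to meet, and gave 552, 438 and 513 regions without Cp190KD libraries 1, 2 and 3 and 490, 386 and 471 without mock libraries 1, 2 and 3. The tRNA:Gln-TTG-2-1, ras and br members were above a −log10 q of 20 in every Cp190KD library.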

How the data were processed

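ATAC-seq peak lists of 9 Kc167 libraries (3 Cp190KD, 3 M1BPKD, 3 mock, grouped by sample title) were analysed. Per the methods and processing notes, the authors trimmed reads with cutadapt 1.8.1, mapped them with Bowtie2 2.3.5 to dm6, filtered with SAMtools 1.9 and Picard, and called peaks with MACS2 2.2.5 at q of 0.0001, each replicate by itself and without a control. Whether cut sites were shifted is not given in the sources used here. The deposited columns hold a score that follows −log10 q, the fold enrichment of the summit as a ratio, −log10 p, −log10 q and summit offsets in bases. Peak calls were set against no input, so the local background of each library was the reference. The study's differential test needs reads and was not used here. Replicates are separate samples by label, and the study states that the ATAC-seq replicates are biological.

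Peaks overlapping by 1 bp or more were merged, and members chosen as described. Fragments over a summit were recovered from fold enrichment and −log10 p, and came out within 0.05 of a whole number for 95.81% to 99.36% of peaks per library. The lowest local background stood for depth (29.5 to 46.4 fragments per base), and peaks per library numbered 13464 to 18959. Gene models were those of Ensembl release 115 without transposable elements (23246 distinct starts), and sequence was RefSeq dm6, whose chromosome lengths contain every peak. Named members were the 20 with the highest mean percentile, the 5 highest in all and in no M1BPKD lists, the 10 highest at starts, those over tRNA genes, up to 3 per gene list, and 3 on each side of the rule. The members and lists were chosen with earlier results of these data known. Python 3.11.15, numpy 2.4.6, pandas 2.3.3, scipy 1.17.1 and matplotlib 3.10.9 were used, and the code was tested on simulated peaks. Alternatives tried were stricter peaks, equal list lengths, other merging and overlap, leaving out each replicate, other distances and windows, and a replicate block.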

Additional observations from a re-analysis of the deposited data

How the results depend on the processing

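The number of gained regions stayed within 1.5 times of the main count under stricter peaks, equal list lengths, wider merging, 50% coverage and merging over all 9 lists (197 to 284), though stricter peaks kept 108 and 31 of the members and equal list lengths 79. Without 1 Cp190KD or mock replicate it was 386 to 552, since fewer lists had to be met, and over 1.5 times the main count without any Cp190KD replicate or mock replicate 1 or 3. Chosen after the data were seen, 190 members lay over 500 bp from any mock peak, and 14.2% of these had a peak in all 3 M1BPKD lists. That share, 15.0% in the main choice, was 26.4% for −log10 q of at least 20 and 24.6% with the 13464 strongest peaks of each list, and 10.3% to 18.9% without 1 replicate (11.0% without Cp190KD replicate 2, 10.3% without replicate 3). The held-out difference was 39.4 percentage points at −log10 q of at least 20, against 29.2. The promoter share was 6.64% with 100 bp to each side of a start in place of 24.5%. With 50 bp to each side of the centre in place of 100 bp, the share of members with a word left its counting interval for 11 of 14 words. A shorter window holds fewer matches of any word, so this fall does not bear on the comparison with all regions. Listed genes with a member numbered 18 with 5000 bp to each side, against 17.

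The M1BPKD minus mock difference at neighbours, 0.125, was -0.015 with only neighbours at a transcript start, 0.172 within 2000 bp and 0.084 within 10000 bp, and 0.113 to 0.134 without 1 replicate. With candidates chosen without the mock library compared it averaged 0.098. The Cp190KD minus mock difference, 0.009, was -0.028 within 2000 bp, -0.45 percentile points on the percentile of −log10 q, and -0.007 to 0.020 without 1 replicate. It has no stable sign. Replicate numbers pair samples by label only. Deviations of same-numbered libraries correlated at -0.235 to -0.002 (Cp190KD with mock) and -0.03 to 0.12 (M1BPKD with mock) over 9234 regions. With the replicate block the M1BPKD difference was 0.125 and the Cp190KD difference 0.009. The cause of these changes was not tested. Peak lists hold no signal below the threshold, and the part of depth in weak members was not tested.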
